A study of Homo sapiens with 16 samples.

Results

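Open chromatin of neural progenitors was compared with that of neurons in brain organoids at day 40, the earliest of the 4 days sampled. ATAC-seq, in which the Tn5 transposase inserts adapters into accessible DNA, had been run on nuclei of sorted cells. The 4 day 40 libraries, of 16 in the whole series, were chosen by their titles and labels: 2 of SOX2::EGFP+ progenitors and 2 of hSyn1::dtomato+ neurons. Both groups came from dorsal-enriched telencephalic organoids of 1 H9 embryonic stem cell line (labelled WT), in which P2A-EGFP took the place of the stop codon on one SOX2 allele and an hSYN1 promoter at AAVS1 drove dTomato. All cells of both groups carry both insertions, so the groups differ by sort gate and not by genotype. The labels do not say whether replicates 1 and 2 were grown as separate cultures, so a p-value here speaks only of how much libraries varied, which may be technical variation. The other 12 libraries, of the same populations at days 60, 90 and 120, served to estimate spread and to test day 40 regions in libraries that had not chosen them.

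Radial glia, the stem cells of the developing cortex, express SOX2 and line the ventricle, and their daughters become neurons either directly or through intermediate progenitors. Notch signalling keeps radial glia from differentiating, whereas proneural factors and neuronal RNA-binding proteins accompany differentiation. Cell identity is largely carried by accessible elements away from gene starts, while the starts of broadly used genes are open in most cell types.

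Each library had its own deposited list of broad peaks, and read depth is unknown, so the amount called stands in its place. Progenitor libraries 1 and 2 had 98690 and 107501 peaks on chromosomes 1 to 22 and X, covering 77.8 and 82.8 Mb. Neuron libraries 1 and 2 had 138432 and 117945 peaks, covering 104 and 97.9 Mb. Both neuron lists were thus longer than both progenitor lists, which touches every unscaled count below. Median peak widths were 634 and 636 bases in progenitors and 613 and 666 bases in neurons. The Jaccard index, the shared bases over all bases covered by either list, was 0.612 for the progenitor pair and 0.564 for the neuron pair. Across the populations it lay between 0.345 and 0.372 in the 4 mixed pairs.

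The locus of SOX2, the transcription factor whose product was the sort marker, had more covered bases in progenitors (hg38 chromosome 3, 181711925 to 181714436). The gene with 20 kb on either side held 15.9 and 12.9 kb of peaks in progenitor libraries and 4.81 and 4.68 kb in neuron libraries, with no overlap between the groups. The scaled difference, on a log2 scale of covered bases plus 500 after scaling each library to the mean total, was 1.79 ± 0.28 (SE, limma adjusted p = 0.00221). The call held without each of the 4 libraries in turn, with adjusted p of up to 0.046, and was lost with no scaling (adjusted p = 0.0767) and where peaks were counted in place of bases (log2 difference 0.35, adjusted p = 0.361). This gene chose the cells, so its value is a check of the labels and not a finding. In sorted populations, a larger share of cells with an open element and a more open element per cell cannot be told apart.

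Of the 8 merged regions in this window, 6 were shared by all 4 libraries and 2 belonged to the progenitor pair alone. The region over the gene itself, chr3:181707759-181713251, was covered by 4830 and 3938 bases of peaks in progenitors and by 1145 and 1595 bases in neurons. The progenitor-only regions were chr3:181715707-181716265, with 481 and 541 bases covered, and chr3:181717638-181718204, with 565 and 548 bases. Most of the SOX2 difference therefore lay in the width of shared regions and less in regions of 1 population. In later libraries the first of these regions had a peak in 5 of 6 progenitor and 0 of 6 neuron libraries, and the second in 2 of 6 and 0 of 6.

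**Figure D1:**
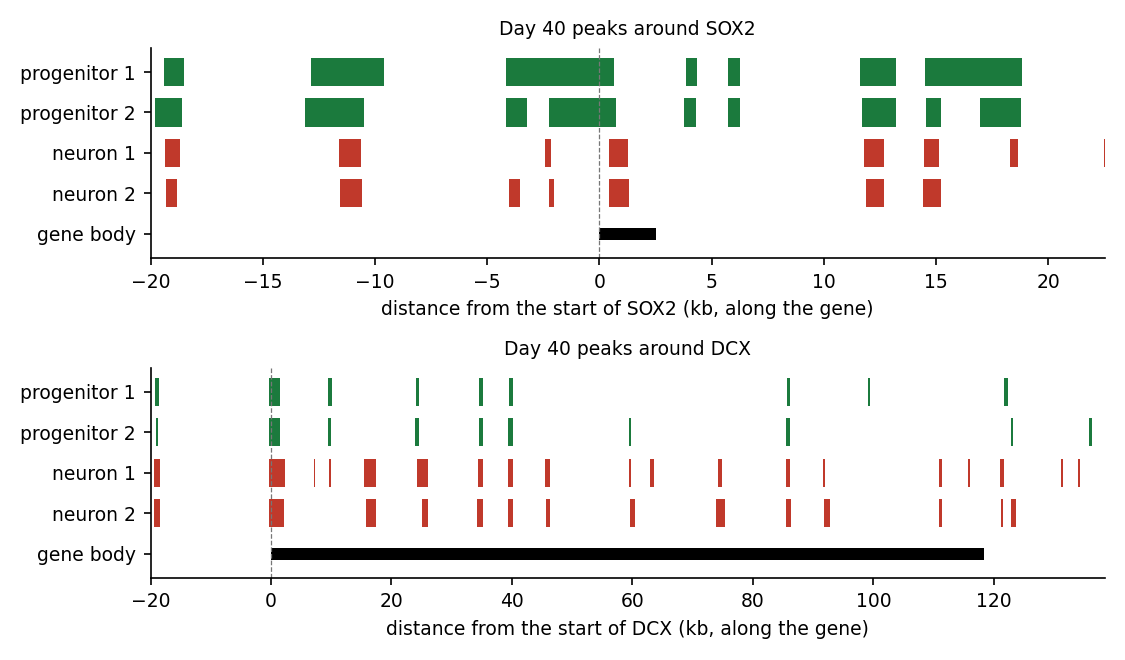
Peaks of the 4 day 40 libraries around SOX2 and DCX, with the distance from the gene start in kb on the x axis and 1 row per library, progenitors above neurons; coloured bars are peaks as deposited and the black bar is the gene. At SOX2 the progenitor rows hold 15.9 and 12.9 kb of peaks against 4.81 and 4.68 kb in the neuron rows, and at DCX 6.14 and 6.37 kb against 14.9 and 14.5 kb.

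The other reporter loci did not pass. SYN1, the gene of the vesicle protein synapsin I, held 3.25 and 3.02 kb in progenitors and 3.17 and 3.72 kb in neurons, a log2 difference of 0.17 ± 0.25 (limma adjusted p = 0.764). Reads of the inserted promoter cannot be told from reads of the gene itself. PPP1R12C, which holds the AAVS1 site, had 2.88 and 2.80 kb in progenitors and 4.08 and 5.82 kb in neurons, a log2 difference of −0.39 ± 0.30 (limma adjusted p = 0.505).

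Few gene starts differed between the populations. Of 19974 protein-coding genes, 13616 (68.2%) had a peak within 1 kb of the start in all 4 libraries. In 164 genes (0.821%) both progenitor libraries and neither neuron library had one, and in 311 (1.56%) both neuron libraries and neither progenitor library did. With the 4 lists cut to 98690 peaks each, the counts were 252 for progenitors and 202 for neurons, so which population had more changed with list length. Among the gene lists described below, the starts of FAM107A and ACSBG1, of outer radial glia, GJA1, a connexin gene of astroglia, RCOR2, a corepressor gene, and CSF1R and DPPA4 had a peak in the progenitor pair alone. The starts of the radial glial channel gene TTYH1, the bHLH factor gene NHLH1, the guidance ligand gene SEMA3C, and C1QA and LEFTY1 had one in the neuron pair alone. All 14 cell cycle and all 15 housekeeping genes had a peak at the start in each of the 4 libraries.

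In the narrower window of 300 bases around the start (250 before it and 50 after), taken from RefSeq on GRCh38.p14, 15813 genes had a promoter sequence. Of these, 129 (0.816%) had a peak in the progenitor pair alone and 206 (1.30%) in the neuron pair alone. Among the 234 list genes with a sequence the counts were 10 and 6, and 161 had a peak in all 4 libraries. The 10 were SOX2, NES, FGFR3, FAM107A, ACSBG1, GJA1, OTX2, FOXC1, RSPO3 and WNT8B, and the 6 were NHLH1, GAD1, ROBO2, NFIX, PAX2 and TTYH1. Within 1 kb of the start, SOX2, NES, FGFR3, OTX2, FOXC1, RSPO3, GAD1 and NFIX had a peak in all 4 libraries. In that window WNT8B lacked one only in neuron library 2, ROBO2 only in progenitor library 1 and PAX2 only in progenitor library 2. FAM107A, ACSBG1, GJA1, NHLH1 and TTYH1 kept their pattern in both windows. The promoters below are shown because these genes stand for the cell states that were compared. SOX2 and NES, the gene of the filament protein nestin, mark radial glia, ACSBG1, an acyl-CoA synthetase gene, marks outer radial glia, and WNT8B encodes a ligand of the cortical hem. NHLH1 encodes a factor of newborn neurons and GAD1 the enzyme that makes GABA. Capitals mark exact matches, on either strand, to a SOX core (ACAAAG or CTTTGT), an E-box of NEUROG and NEUROD factors (CAGATG or CATCTG), a piece of the RE1 element bound by REST (TTCAGCACC or GGTGCTGAA) and a CCAAT box (CCAAT or ATTGG). In order, the windows are chr3:181711675-181711974 (plus strand), chr1:156677358-156677657 (minus), chr15:78234516-78234815 (minus), chr10:100462759-100463058 (plus), chr1:160366821-160367120 (plus) and chr2:170816637-170816936 (plus).
SOX2: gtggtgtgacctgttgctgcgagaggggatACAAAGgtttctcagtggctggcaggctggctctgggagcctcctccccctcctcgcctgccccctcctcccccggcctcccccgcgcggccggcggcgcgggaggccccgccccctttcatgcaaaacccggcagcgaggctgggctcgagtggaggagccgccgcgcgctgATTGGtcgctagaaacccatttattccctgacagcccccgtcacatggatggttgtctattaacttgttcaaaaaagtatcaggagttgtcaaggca
NES: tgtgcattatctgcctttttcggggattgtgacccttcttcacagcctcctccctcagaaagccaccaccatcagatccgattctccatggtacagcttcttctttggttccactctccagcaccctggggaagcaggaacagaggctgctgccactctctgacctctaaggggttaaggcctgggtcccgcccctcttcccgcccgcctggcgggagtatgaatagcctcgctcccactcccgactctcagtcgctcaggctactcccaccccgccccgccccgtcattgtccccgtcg
ACSBG1: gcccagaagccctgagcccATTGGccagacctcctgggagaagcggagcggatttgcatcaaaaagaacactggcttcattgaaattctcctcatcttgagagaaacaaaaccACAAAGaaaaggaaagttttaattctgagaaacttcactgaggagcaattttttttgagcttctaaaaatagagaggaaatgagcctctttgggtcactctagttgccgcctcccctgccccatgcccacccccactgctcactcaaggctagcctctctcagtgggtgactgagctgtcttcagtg
WNT8B: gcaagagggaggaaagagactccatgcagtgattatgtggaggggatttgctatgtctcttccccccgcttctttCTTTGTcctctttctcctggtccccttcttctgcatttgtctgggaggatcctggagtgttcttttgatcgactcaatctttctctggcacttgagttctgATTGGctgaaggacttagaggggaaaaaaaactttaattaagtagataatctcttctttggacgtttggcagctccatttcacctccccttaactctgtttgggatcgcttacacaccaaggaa
NHLH1: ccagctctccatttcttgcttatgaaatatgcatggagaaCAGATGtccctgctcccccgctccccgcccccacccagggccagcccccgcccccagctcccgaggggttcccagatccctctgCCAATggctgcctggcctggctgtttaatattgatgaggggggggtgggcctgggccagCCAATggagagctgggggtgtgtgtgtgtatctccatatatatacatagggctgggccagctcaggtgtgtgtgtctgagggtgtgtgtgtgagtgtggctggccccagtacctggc
GAD1: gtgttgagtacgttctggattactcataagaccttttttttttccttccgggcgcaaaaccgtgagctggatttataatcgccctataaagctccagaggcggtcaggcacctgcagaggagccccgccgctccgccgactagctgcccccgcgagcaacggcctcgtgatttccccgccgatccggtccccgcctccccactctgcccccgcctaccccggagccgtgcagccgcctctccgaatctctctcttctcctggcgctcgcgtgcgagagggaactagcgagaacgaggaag

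The SOX2, ACSBG1 and WNT8B windows each held a SOX core and a CCAAT box, the NHLH1 window a NEUROG and NEUROD E-box and CCAAT boxes, and the NES and GAD1 windows none of the 4. Of the list genes' promoters, 3 of the 10 progenitor-only ones (SOX2, ACSBG1 and WNT8B) and 2 of the 6 neuron-only ones (NFIX and PAX2, not shown) held a SOX core. A SOX core stood in 23.3% of the 129 progenitor-only promoters, in 10.7% of the 206 neuron-only promoters and in 12.8% of all 15813. The NEUROG and NEUROD E-box stood in 9.30%, 18.9% and 11.7% in the same order. Among the 4363 promoters with no day 40 peak these shares were 18.9% and 18.7%. The shares for the RE1 piece were 1.55%, 0 of 206 promoters and 0.398%, and for the CCAAT box 36.4%, 32.0% and 36.3%. Base composition differed between the sets too, with a median GC content of 50% in progenitor-only promoters, 62.0% in neuron-only promoters and 62.7% in all. The median number of CpG sites was 7, 16 and 22. These are descriptions of the letters in the windows, and the part of base composition in the motif shares was not tested.

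Away from gene starts the populations differed more. Merging the 4 lists gave 199866 regions, and all 4 libraries shared 53692 of them (26.9%). Both progenitor libraries and neither neuron library had a peak in 20019 regions (10%), and both neuron libraries and neither progenitor library in 34792 (17.4%). The lists behind these counts held 98690 and 107501 peaks in progenitors and 138432 and 117945 in neurons. Cut to 98690 peaks each, they gave 24110 progenitor-only and 23955 neuron-only regions, and cut to 77.8 Mb each, 27254 and 17731. Which population had more regions of its own therefore changed with the amount called. A test of 1 region with 2 libraries against 2 cannot give a two-sided exact p below 0.333, so no region was called singly.

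**Figure D2:**
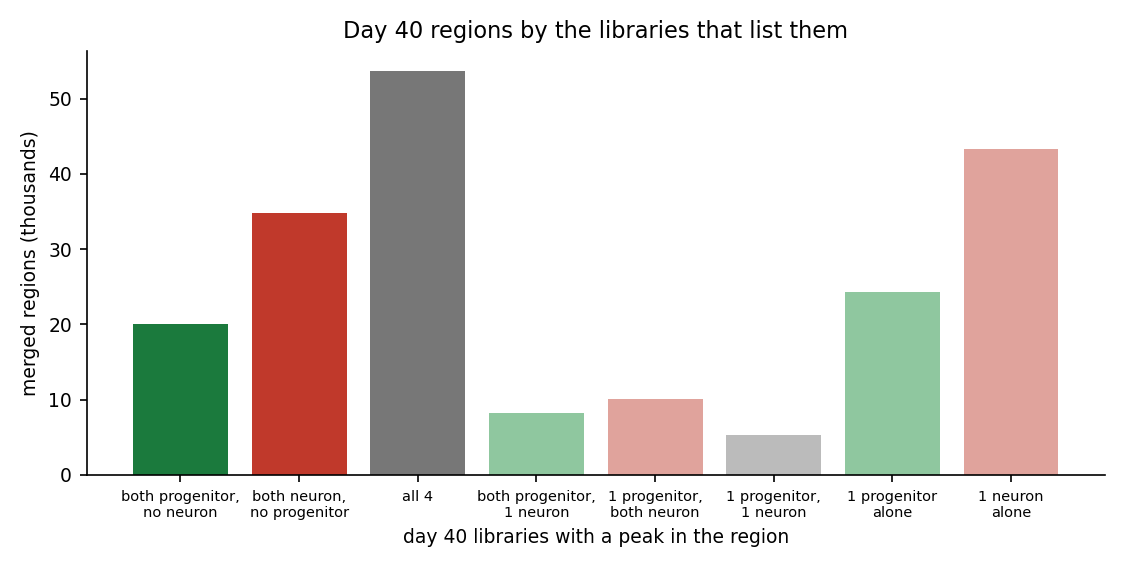
Number of merged day 40 regions (y axis, bars from 0) by which libraries had a peak (x axis); full green and red bars are regions of the progenitor pair and of the neuron pair alone, grey is shared, pale bars are mixed or single-library patterns. The progenitor pair alone had 20019 regions, the neuron pair alone 34792, and all 4 libraries 53692.

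Regions of 1 population lay far from gene starts and were narrower than shared ones. Only 1.16% of progenitor-only and 1.22% of neuron-only regions lay within 1 kb of a gene start, against 23.4% of the regions open in all 4 libraries. Median distance to a start was 84.7 kb for progenitor-only regions, 97.1 kb for neuron-only regions and 31.9 kb for shared regions. Median widths were 678, 717 and 1266 bases in the same order. A merged region spans the peaks of every library in it, so part of the greater width of shared regions comes from merging. Inside genes lay 47.9%, 49.7% and 56.5%. The peaks in population-specific regions were also weaker in the authors' own fold enrichment, with a median of 3.21 in both progenitor lists and of 3.24 and 3.19 in the neuron lists. Peaks in shared regions had medians of 3.57 and 3.66 in progenitors and 3.81 and 4.07 in neurons. A single library alone held 9668 and 14694 regions in progenitors and 29867 and 13491 in neurons, with neuron library 1, the longest list, highest.

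The highest-ranked progenitor-only region by the authors' q-values within both lists lay in GPM6A, a neuronal membrane glycoprotein gene, at chr4:175988062-175989402. It ranked at percentile 99.2 and 99.8 of the progenitor lists and had a peak in 6 of 6 later progenitor and 1 of 6 later neuron libraries. In CNTNAP2, the gene of a neuronal adhesion protein, chr7:147990766-147992192 ranked at 99.6 and 98.9 and recurred in 6 and 0 later libraries. Another, chr10:100485376-100486678, lay 22367 bases from the WNT8B start inside SEC31B, ranked at 96.9 and 96.1, and recurred in 6 and 0. Of the 6 highest-ranked progenitor-only regions, those in GPM6A and CNTNAP2 lay inside genes of neuronal membrane proteins. The others overlapped LHCGR, TFEC and ASH1L or lay 67311 bases from the TXNDC5 start.

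Among neuron-only regions the highest rank was that of chr2:177625871-177626796 in the phosphodiesterase gene PDE11A, at percentile 98.5 and 98.3, with a peak in 2 of 6 later progenitor and 6 of 6 later neuron libraries. Next came chr1:204188508-204189716, 6775 bases from the KISS1 start, at 98.2 and 96.4, which recurred in 0 later progenitor and 6 later neuron libraries. Among the list genes it was chr21:29829194-29830221 in GRIK1, a kainate receptor gene, at 97.6 and 92.6, which recurred in 2 and 6. A region in DCC, the netrin receptor gene, chr18:52391780-52392705, ranked at 96.9 and 88.4 and recurred in 4 and 6. Other regions of list genes recurred less: that in RBFOX1 in 0 later progenitor and 2 later neuron libraries, that in COL1A2 in 0 and 0, and that in ZFPM2 in 0 and 1. The region in TEAD2 recurred in 2 and 6.

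Day 40 progenitor-only regions were found again in later progenitors. Of the 20019, 62.9% and 64.0% had a peak in the progenitor libraries of day 60, 54.1% and 55.9% in those of day 90, and 42.5% and 24.9% in those of day 120. In neuron libraries the shares were 8.21% and 4.6% for day 60, 15.7% and 9.56% for day 90, and 9.44% and 8.87% for day 120. All 6 later progenitor libraries lay above all 6 later neuron libraries. The means were 50.7% ± 14.8 in later progenitors and 9.40% ± 3.59 in later neurons (SD, n = 6 each), a difference of 41.3 percentage points (two-sided exact permutation p = 0.00216, the smallest the test can give, adjusted over the 2 region sets to 0.00433). The day 120 library at 24.9% had the fewest peaks of all later libraries, 67977. Without it the difference was 46.5 percentage points (exact adjusted p = 0.00866).

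The 34792 neuron-only regions separated later libraries less. Their share was 23% ± 8.81 in later progenitors and 35.3% ± 6.22 in later neurons (SD, n = 6 each), a progenitor minus neuron difference of −12.3 percentage points (two-sided exact permutation p = 0.0216, adjusted 0.0216). Later progenitor libraries ranged from 8.80% to 32.9% and later neuron libraries from 29.3% to 44.4%, so the groups overlapped. The call was lost without day 40 progenitor library 2 (−9.91, exact adjusted p = 0.0606) and where peaks had to cover 50% of a region (−8.75, exact adjusted p = 0.0996). With all 16 lists cut to 67977 peaks, the length of the shortest, 16438 such regions were left. Their shares were 21.9% in later progenitors and 40.2% in later neurons, a difference of −18.3 (exact adjusted p = 0.00216). Without the short day 120 progenitor library the difference was −9.46 (exact adjusted p = 0.0433). Of the 34792 regions 47.0% had a peak in at least 1 later progenitor library, while 25.1% of the progenitor-only regions had one in at least 1 later neuron library. In no later library lay 21.3% of the progenitor-only and 33.8% of the neuron-only regions. All 6 later libraries of the same population and none of the other shared 1971 progenitor-only and 544 neuron-only regions. For the regions open in all 4 day 40 libraries the shares were 86.9% in later progenitors and 75.5% in later neurons (exact permutation p = 0.0606).

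**Figure D3:**
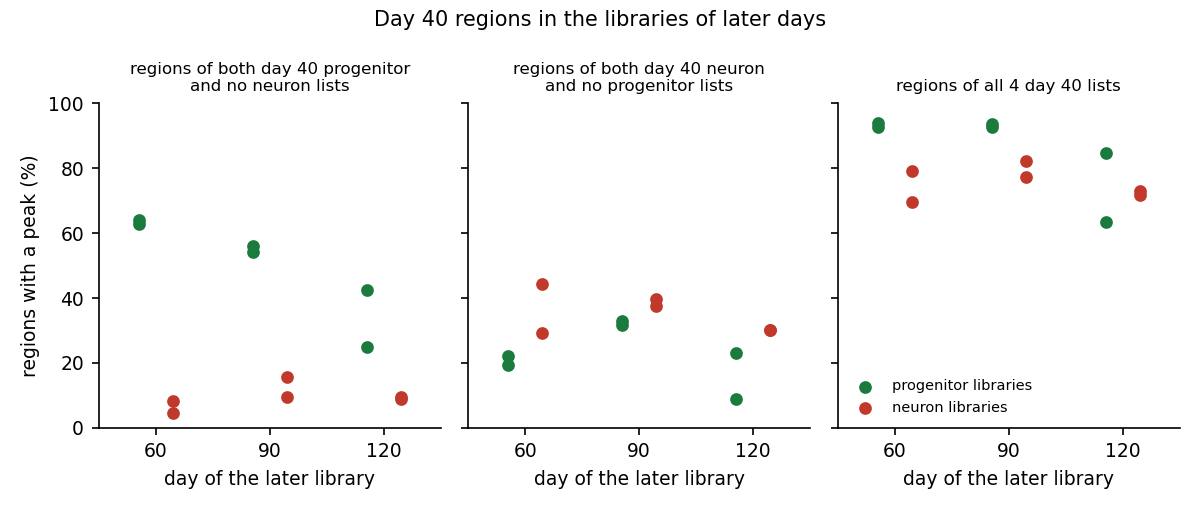
Share of each day 40 region set (percent, y axis) with a peak in each later library, by day (x axis), 1 point per library, progenitor libraries in green left of neuron libraries in red. In the progenitor-only set all 6 green points lie above all 6 red ones (means 50.7% and 9.40%), and in the neuron-only set they overlap (means 23% and 35.3%).

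Covered bases around genes were then compared for 18755 loci, those where 2 or more of the 16 libraries had 500 or more bases under peaks. By limma, 652 loci (3.48%) were higher in progenitors and 421 (2.24%) in neurons, 5.72% in either direction. The calls depend on scaling and on single libraries. Without scaling for the longer neuron lists, 45 loci were higher in progenitors and 132 in neurons, which puts 25.4% of calls on the progenitor side in place of 60.8%. With all 16 lists cut to 67977 peaks, the length of the shortest, 887 and 717 loci were called, a share of 55.3%. For loci, lists of equal length mean this cut. The median difference of all loci was 0.10 after scaling, −0.18 unscaled and 0.00 with lists of equal length, so differences are to be read against these medians. Leaving out 1 of the 4 libraries gave between 82 (without progenitor library 1) and 366 (without neuron library 1) loci higher in progenitors. It gave between 63 and 253 higher in neurons, for the same libraries; the lone library left in a group is then assumed to vary like the other groups. Called loci belonged to longer genes, with a median of 69.8 kb for those higher in progenitors and 76.2 kb for those higher in neurons, against 26.6 kb over all tested, and whether calls depend on gene length was not tested.

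The 331 genes of 28 lists held 19 loci called higher in progenitors and 18 in neurons. Over all loci 3.48% and 2.24% were called, and no list was tested against these shares. The lists were chosen with earlier results of these data known, so their counts and medians are descriptions. Of the 37 called list loci, all kept their sign under the 4 scalings tried. With lists of equal length 24 calls remained, and without scaling 2 (C1QA and UNC13A). The 5 that remained without each of the 4 libraries were SOX2, NOTCH2, NFIA, MYT1L and RBFOX3, and 15 were lost whichever library was left out. None of these 5 passed without scaling, where the adjusted p was 0.0767 for SOX2, 0.0623 for NOTCH2, 0.395 for NFIA, 0.154 for MYT1L and 0.166 for RBFOX3.

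**Figure D4:**
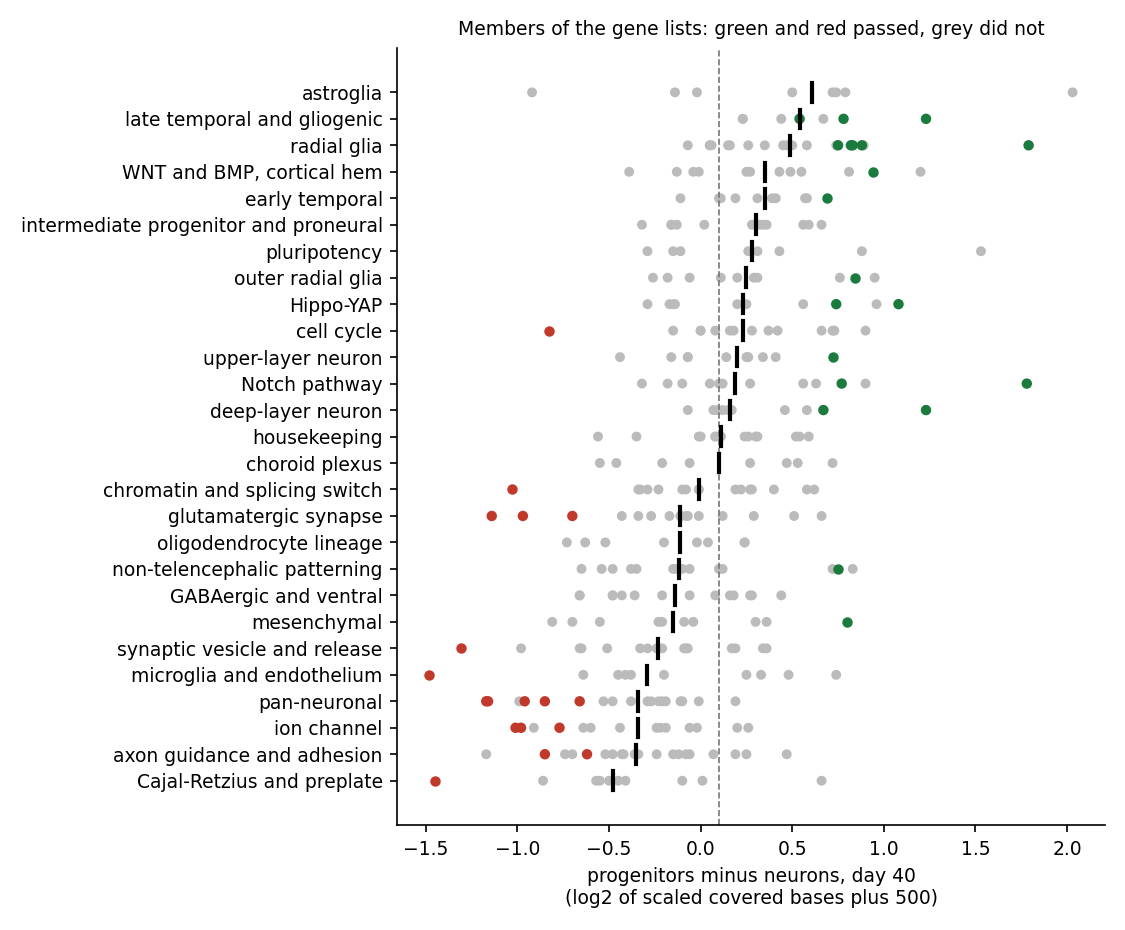
Scaled log2 difference of each list member at day 40, progenitors minus neurons (x axis), by gene list (rows); green points passed as higher in progenitors, red as higher in neurons, grey did not pass, black bars are list medians and the dashed line is the median of all loci, 0.10. Radial glia have a median of 0.49 with 5 of 20 passing on the progenitor side, and pan-neuronal genes −0.34 with 5 of 18 passing on the neuron side. The lists were chosen with earlier results of these data known.

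Radial glia genes leaned to progenitors. Of 20 members 5 were higher in progenitors and 0 in neurons, with a median of 0.49 (0.18 unscaled, 0.63 with lists of equal length). One of these was SOX2, which chose the cells. The others were SLC1A3, the glutamate transporter GLAST, at 0.88, the growth factor receptor FGFR2 at 0.83, the filament gene VIM at 0.82 and the Notch effector HES1 at 0.75. HES1 had 5.93 and 6.25 kb in progenitors and 4.68 and 3.97 kb in neurons (log2 difference 0.75 ± 0.17, limma adjusted p = 0.0185), and VIM 6.47 and 5.37 kb in progenitors and 4.33 and 3.55 kb in neurons (0.82 ± 0.22, adjusted p = 0.0341). The groups did not overlap in either, and both calls were lost when any 1 library was left out. PAX6, the cortical progenitor factor, did not pass, with 17.7 and 14.6 kb in progenitors and 14.4 and 14.3 kb in neurons (0.47 ± 0.16, limma adjusted p = 0.092). Neither did NES at 0.35 or HES5 at 0.05, whose neuron library 2 had 9.22 kb, above both progenitor libraries. NES had a peak in the 300-base promoter window in the progenitor pair alone, but within 1 kb of its start in all 4 libraries. Its locus held 6.60 and 6.73 kb in progenitors and 5.84 and 7.09 kb in neurons.

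In the Notch pathway 2 of 12 loci were higher in progenitors and 0 in neurons, with a median of 0.19 (−0.10 unscaled). NOTCH2, a receptor gene, held 9.69 and 7.74 kb in progenitors and 3.30 and 2.22 kb in neurons, without overlap (log2 difference 1.78 ± 0.20, limma adjusted p = 0.000403). Its window also holds ADAM30, and reads of NOTCH2 can be shared with its near-identical NOTCH2NL copies, so the position of its peaks is uncertain. Of 25 regions there 6 had a peak in the progenitor pair alone and 0 in the neuron pair alone, beside 10% and 17.4% of all regions. The ligand gene JAG1 had 12 and 9.52 kb in progenitors and 7.30 and 7.97 kb in neurons (0.77 ± 0.18, limma adjusted p = 0.0164), a call that was lost in 3 of 4 runs without a library.

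Genes linked to later, gliogenic progenitors leaned to progenitors. Of 8 members 3 were higher in progenitors and 0 in neurons, with a median of 0.54 (0.22 unscaled). NFIA, a nuclear factor of gliogenesis, had 43.9 and 41.9 kb in progenitors and 23.8 and 21.4 kb in neurons, without overlap (log2 difference 1.23 ± 0.15, limma adjusted p = 0.00045). Of the 70 regions at NFIA, 15 were progenitor-only and 5 neuron-only, beside 10% and 17.4% of all regions. ZBTB20, a zinc finger factor gene, stood at 0.78 and NFIB at 0.54. At NFIB the groups overlapped in unscaled bases, with 45.9 and 51.1 kb in progenitors and 47.2 and 37.1 kb in neurons.

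The early temporal list had 1 of 10 loci higher in progenitors, IGF2BP3, an mRNA-binding protein gene of early development, at 0.69, with a list median of 0.35 (0.04 unscaled). Outer radial glia had 1 of 10, FAM107A at 0.84, with a median of 0.25 (−0.06 unscaled). FAM107A had 6.39 and 7.57 kb in progenitors and 4.42 and 4.80 kb in neurons (limma adjusted p = 0.0413), and HOPX, another marker of these cells, 5.56 and 6.12 kb in progenitors and 6.32 and 5.50 kb in neurons (0.29, adjusted p = 0.525). Astroglia had 0 of 8 called in either direction and a median of 0.61 (0.33 unscaled), led by SPARCL1, a secreted matrix protein gene, at 2.03 ± 0.60 (limma adjusted p = 0.0573). SPARCL1 had 2.79 and 3.95 kb in progenitors and 1.59 kb in neuron library 1, and was listed at 0 in neuron library 2.

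Among signalling genes, the Hippo-YAP list had 2 of 10 loci higher in progenitors and 0 in neurons, with a median of 0.23 (−0.08 unscaled). WWTR1, the gene of the coactivator TAZ, had 11.1 and 11.2 kb in progenitors and 7.64 and 5.22 kb in neurons (log2 difference 1.08 ± 0.19, limma adjusted p = 0.00379), and CCN1, a target of the pathway, stood at 0.74. The WNT and BMP list of the cortical hem had 1 of 12, WNT2B at 0.94, with a median of 0.35 (0.05 unscaled). WNT2B held 6.59 and 5.45 kb in progenitors and 3.43 and 3.85 kb in neurons (limma adjusted p = 0.00885). WNT8B, whose promoter is shown above, did not pass at 0.81 ± 0.25 (adjusted p = 0.0623).

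Calls among proneural and cell cycle genes are to be read beside the 5.72% of all loci called in either direction. Of 12 genes of intermediate progenitors and proneural factors, 0 were called in either direction, with a median of 0.30 (0.00 unscaled). Peak lists of equal length gave 0 higher in progenitors and 1 in neurons. EOMES, the marker of intermediate progenitors, had 8.17 and 8.16 kb in progenitors and 7.29 and 8.47 kb in neurons (0.36, limma adjusted p = 0.35), and NEUROG2 8.34 and 8.66 kb in progenitors and 9.23 and 8.23 kb in neurons (0.28, adjusted p = 0.509). In both genes the groups overlapped. Peak lists of equal length gave 2 of 14 cell cycle loci higher in progenitors, CCND1 at 0.97 and CCNB2 at 0.86, and 1 in neurons. In the main fit 1 of the 14 was called, with a list median of 0.23 (−0.07 unscaled). It was CENPF, a kinetochore protein gene, and it was higher in neurons: 1.99 and 3.14 kb in progenitors and 7.26 and 5.08 kb in neurons (−0.83 ± 0.21, limma adjusted p = 0.0287). That call was lost in 3 of 4 runs without a library and with the replicate number as a block (adjusted p = 0.0557).

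Pan-neuronal genes leaned to neurons. Of 18 members 0 were higher in progenitors and 5 in neurons, with a median of −0.34 (−0.64 unscaled, −0.33 with lists of equal length). With lists of equal length 1 was higher in progenitors and 4 in neurons. RBFOX3, the gene of the neuronal nuclear antigen NeuN, had 24.1 and 23.8 kb in progenitors and 61.2 and 76.0 kb in neurons (log2 difference −1.16 ± 0.19, limma adjusted p = 0.00268). MYT1L, a factor that represses other fates in neurons, had 15.9 and 17.1 kb in progenitors and 40.8 and 41.3 kb in neurons (−0.96 ± 0.16, adjusted p = 0.00302). The groups did not overlap in either, and both calls held without each library.

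These loci held more neuron-only than progenitor-only regions, as did all 199866 regions together, at 17.4% and 10%. Whether the loci exceeded these shares was not tested. RBFOX3 had 33 neuron-only and 6 progenitor-only regions among 97, MYT1L 21 and 4 among 74, and RBFOX1, a neuronal splicing factor gene, 76 and 15 among 202. RBFOX1 held 32.3 and 43.1 kb in progenitors and 100 and 114 kb in neurons (log2 difference −1.17, limma adjusted p = 0.00505). DCX, the gene of the microtubule protein doublecortin of young neurons, had 6.14 and 6.37 kb in progenitors and 14.9 and 14.5 kb in neurons (−0.85 ± 0.16, limma adjusted p = 0.00487), and 0 progenitor-only and 6 neuron-only regions among 23. With lists of equal length DCX did not pass (adjusted p = 0.73), nor in 3 of 4 runs without a library. The fifth was CELF4, an RNA-binding protein gene, at −0.66. STMN2, a tubulin regulator gene of growing axons, did not pass, with 4.25 and 5.82 kb in progenitors and 8.07 and 7.58 kb in neurons (−0.29, adjusted p = 0.438).

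**Figure D5:**
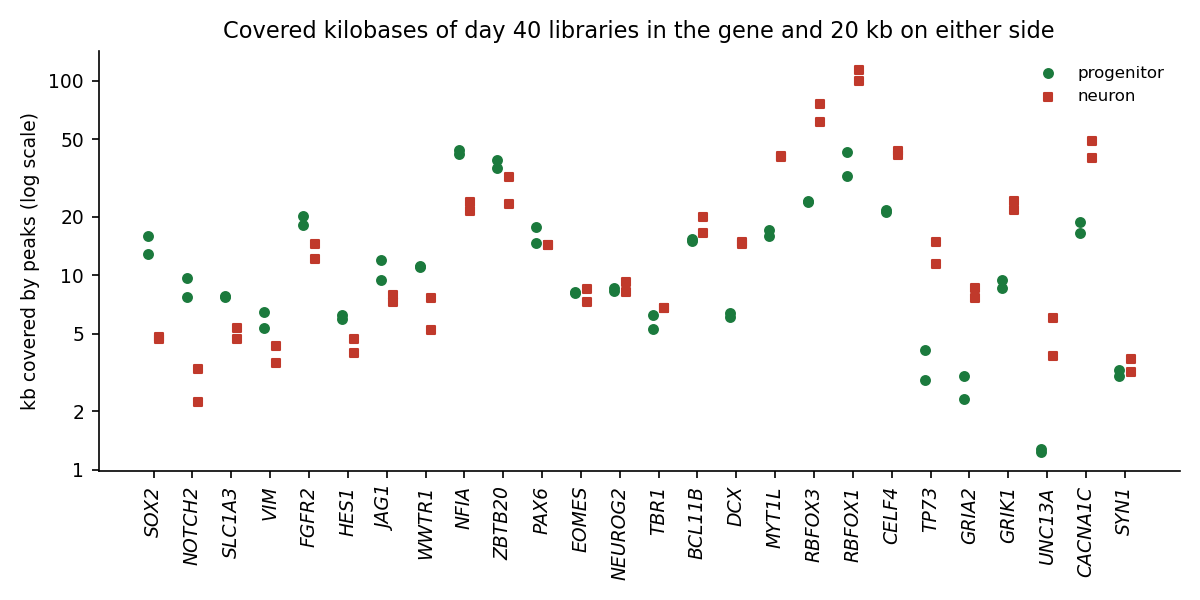
Covered kilobases (y axis, log scale) in each day 40 library around selected genes (x axis), 1 point per library, progenitors as green circles left of neurons as red squares. SOX2, NOTCH2 and NFIA lie higher in both progenitor libraries, with 43.9 and 41.9 kb against 23.8 and 21.4 kb at NFIA, and MYT1L and RBFOX3 lie higher in both neuron libraries.

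Both neuron lists were longer than both progenitor lists, and raw bases separated the groups more often in the neuron direction. Both progenitor libraries exceeded both neuron libraries at 14.9% of loci, and both lay below them at 45.2%. Separation of raw kilobases in the neuron direction is thus common among all loci, and in the progenitor direction less so.

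Cajal-Retzius neurons and the preplate, the earliest neurons of the cortex, had 1 of 10 loci called, with a median of −0.48 (−0.80 unscaled). With lists of equal length 1 was higher in progenitors and 2 in neurons. TP73, the gene of the p53 relative made by Cajal-Retzius cells, had 2.91 and 4.14 kb in progenitors and 11.5 and 14.8 kb in neurons (log2 difference −1.45 ± 0.26, limma adjusted p = 0.00433). RELN, the gene of the signal these cells secrete, had 14.6 and 18.7 kb in progenitors and 33.2 and 26.6 kb in neurons and did not pass (−0.50, adjusted p = 0.165). Both separated the groups in unscaled bases.

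Lists of layer genes held 0 loci called higher in neurons at day 40, beside 2.24% of all loci. The deep-layer list had 2 of 10 loci higher in progenitors and 0 in neurons, NFIA, which it shares with the gliogenic list, and FOXP2, a factor gene of corticothalamic neurons, at 0.67, with a median of 0.16 (−0.15 unscaled). The deep-layer factors TBR1 and BCL11B stood at 0.09 and 0.07 and did not pass. TBR1 had 5.31 and 6.25 kb in progenitors and 6.76 and 6.79 kb in neurons, and BCL11B 15 and 15.4 kb in progenitors and 16.6 and 20 kb in neurons. The upper-layer list had 1 of 10, BHLHE22, a bHLH factor gene, at 0.72 in the progenitor direction (limma adjusted p = 0.0266), with a median of 0.20 (−0.12 unscaled).

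Synaptic, channel and guidance genes held further loci higher in neurons and 0 higher in progenitors. The glutamatergic list had 3 of 16, the AMPA receptor genes GRIA2 at −1.14 and GRIA4 at −0.70 and the kainate receptor gene GRIK1 at −0.97, with a median of −0.11. The GRIA4 call held under 4 of 17 alternatives. GRIK1 had 8.65 and 9.42 kb in progenitors and 24.2 and 21.7 kb in neurons (−0.97 ± 0.18, limma adjusted p = 0.00529) and kept its call in 3 of 4 runs without a library. The vesicle and release list had 1 of 16, UNC13A, a vesicle priming gene, with 1.23 and 1.28 kb in progenitors and 3.85 and 6.07 kb in neurons (−1.31 ± 0.29, limma adjusted p = 0.0133), and a median of −0.23. Ion channels had 3 of 14, the potassium channel gene KCNH7 at −1.01 and the calcium channel genes CACNA1C at −0.98 and CACNA1E at −0.77, with a median of −0.34. KCNH7 did not pass with lists of equal length, where CACNA1C, CACNA1E and CACNA2D1 did. Over 17 alternatives its difference ranged from −1.33 to −0.24. Axon guidance and adhesion had 2 of 20, the semaphorin receptor gene PLXNA4 at −0.85 and DCC at −0.62, with a median of −0.35. All 4 medians had the same sign unscaled, from −0.43 to −0.68, and with lists of equal length. The guidance list then had 2 loci higher in progenitors and 2 in neurons with lists of equal length.

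The chromatin and splicing list, of factors exchanged when progenitors become neurons, had 1 of 16 loci called. DPF3, a subunit gene of the BAF remodelling complex, had 5.41 and 4.75 kb in progenitors and 12.6 and 15 kb in neurons (log2 difference −1.03 ± 0.26, limma adjusted p = 0.0302). REST, the repressor of neuronal genes, did not pass, with 2.72 and 3.19 kb in progenitors and 2.71 and 2.58 kb in neurons (0.40, adjusted p = 0.429). The list median was −0.01 (−0.29 unscaled).

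Markers of other cells were measured alongside. GABAergic and ventral genes had 0 of 14 called, a median of −0.14 and summed peaks of 87.1 and 83.8 kb in progenitors and 106 and 127 kb in neurons. GAD1 had 4.26 and 3.27 kb in progenitors and 6.85 and 8.90 kb in neurons (−0.66, limma adjusted p = 0.16). It passed with lists of equal length (−0.91, limma adjusted p = 0.0343), where 0 of these genes were higher in progenitors and 2 in neurons. Non-telencephalic patterning genes had 1 of 14, TCF7L2 at 0.75, with sums of 92.7 and 96.8 kb in progenitors and 95.9 and 133 kb in neurons. The choroid plexus and oligodendrocyte lists had 0 of 8 each, with sums from 25.4 to 25.8 and from 33.3 to 33.8 kb in progenitors and from 27.7 to 33.1 and from 51.9 to 53.2 kb in neurons.

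Mesenchymal genes had 1 of 10, TWIST1 at 0.80, with sums of 31.9 and 30.2 kb in progenitors and 40.6 and 41.9 kb in neurons. The TWIST1 call held under 3 of 17 alternatives. Microglia and endothelium had 1 of 10, the complement gene C1QA at −1.48, with 17.8 and 18.8 kb in progenitors and 25.0 and 27.0 kb in neurons. Pluripotency genes had 0 of 8, with 13.6 and 15.7 kb in progenitors and 13.2 and 13.3 kb in neurons. DPPA4 had 1.40 and 1.79 kb in progenitors, was listed at 0 in neuron library 1 and had 0.64 kb in neuron library 2 (1.53 ± 0.47, limma adjusted p = 0.0672). It passed with lists of equal length (1.85, limma adjusted p = 0.0013), where 1 of the 8 was higher in progenitors and 0 in neurons. The 15 housekeeping genes had 0 called and a median of 0.11, with 63.9 and 56.5 kb in progenitors and 63.7 and 70.0 kb in neurons. No member of any of the 28 lists was at 0 in all 4 libraries, and the part of other cell types in the differences above was not tested.

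Over all genes, the largest differences with non-overlapping bases at least 2 kb apart included many sparse loci. On the progenitor side LRIG3, the gene of a membrane regulator of growth factor receptors, had 9.79 and 9.61 kb in progenitors and 3.42 and 1.25 kb in neurons (log2 difference 2.22 ± 0.27, limma adjusted p = 0.000498). SLC15A2, a peptide transporter gene, had 1.9 and 2.9 kb in progenitors, 0.543 kb in neuron library 1 and was listed at 0 in neuron library 2 (2.06 ± 0.34, adjusted p = 0.00302). TEX101 was listed at 0 in both neuron libraries and had 2.71 and 2.85 kb in progenitors. The other 7 were OR9Q1, HSD17B2, CD160, HAPSTR2, LMOD2, NOTCH2NLC and TP63, with differences from 1.96 to 2.55. NOTCH2NLC is a near-identical partial copy of NOTCH2, so reads of the 2 genes may be exchanged.

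On the neuron side GRXCR1, a gene known from hair cells of the inner ear, had 0.41 and 1.44 kb in progenitors and 10.1 and 6.01 kb in neurons (−2.34 ± 0.31, limma adjusted p = 0.000829). FGF6, a growth factor gene, was listed at 0 in progenitor library 1, had 0.214 kb in progenitor library 2 and 5.01 and 3.99 kb in neurons (−2.76 ± 0.30, adjusted p = 0.000403). EPHA8, an ephrin receptor gene, was listed at 0 and 1.26 kb in progenitors and had 3.75 and 8.24 kb in neurons (−2.41 ± 0.59, adjusted p = 0.0248). The receptor gene GPR26 was listed at 0 in both progenitor libraries and had 4 and 5.47 kb in neurons. The others were ANGPT4, CD300LF, SERPINI2 and the keratin-associated genes KRTAP10-12, KRTAP10-11 and KRTAP10-4, which belong to 1 multigene cluster on chromosome 21 inside TSPEAR, so their peaks may be shared or misplaced. Of the 20 loci, 9 kept their call without each of the 4 libraries, among them LRIG3, FGF6 and GRXCR1.

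Loci called at day 40 mostly kept their direction later. Of the 652 higher in progenitors, 78.5%, 74.2% and 72.9% were also higher in progenitors at days 60, 90 and 120, against 42.3%, 40.8% and 40.5% of all loci. Of the 421 higher in neurons, 80.3%, 71.3% and 73.4% were higher in neurons at these days, against 57.7%, 59.2% and 59.5% of all loci. The later libraries are other samples, but the same fit supplied the spread for all days.

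A direct test asked where the day 40 difference departed from the mean difference of the later days. By limma, 218 loci (1.16%) stood more on the progenitor side at day 40 and 163 (0.869%) more on the neuron side. Without progenitor library 1 or without neuron library 2, 0 loci passed in limma in either direction (smallest adjusted p = 0.0634 and 0.0541), while 2308 and 2683 had an unadjusted p under 0.05, against 3778 with all libraries. Without scaling 2 and 14 loci passed. NFIA exceeded its later difference by 0.95 ± 0.17 (adjusted p = 0.0121), with log2 differences of 1.23 at day 40 and 0.28, 0.27 and 0.30 at days 60, 90 and 120. DCX departed by −0.98 ± 0.18 (adjusted p = 0.0128), with −0.85 at day 40 and −0.18, −0.11 and 0.68 at days 60, 90 and 120. SOX2 did not pass this test, with 1.79 at day 40 and 0.90, 1.12 and 0.68 afterwards (a departure of 0.89 ± 0.32, limma adjusted p = 0.146). With lists of equal length NFIA still departed, by 1.3 (adjusted p = 0.00327), and DCX did not pass, at −0.66 (adjusted p = 0.0693) with a day 40 difference of −0.14. Neither passed without progenitor library 1 or without neuron library 2.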

How the data were processed

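Open chromatin was measured by ATAC-seq, with nuclei treated with Tn5 for 30 minutes per the labels' protocols. Per the submitters' processing notes, the build was hg38, and the tools were MACS2 2.1.2, SAMtools 1.9, Picard, BWA 0.7.17 and Trim Galore 0.5.0. Filters, the Tn5 offset and peak-calling settings were not given in the sources used here. Each deposited list gives, per peak, the authors' score, fold (a ratio to background), −log10 p-value and −log10 q-value. These deposited values only ranked or filtered peaks within a list. Peaks were called per library, so read depth is unknown and no counting interval could be given.

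Peaks outside chromosomes 1 to 22 and X were left out, between 97 and 173 in each day 40 list. The 4 day 40 lists were merged wherever peaks shared 1 base or more, and presence in a library needed an overlap of 1 base. Gene positions came from the RefSeq table of GRCh38.p14. Its starts were known for 15813 of 19974 protein-coding genes; for the other 4161 either gene end counted as the start. Locus coverage was the number of bases under peaks in a gene plus 20 kb on either side, scaled to the mean library total, as log2 with a pseudocount of 500 bases, which shrinks sparse loci. Windows of neighbouring genes overlap. One limma 3.58.1 fit (R 4.3.3, trended prior variance) with 8 group means covered all 16 libraries, with Benjamini-Hochberg adjustment over 18755 loci and a threshold of 0.05. The fit was tested on simulated data.

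Shares of day 40 regions in later libraries were compared by an exact permutation test (SciPy 1.17.1). Alternatives changed scaling, list length, q-value, overlap, pseudocount, filter, flank, start window, libraries left out and a replicate block. The lone library of a group with 1 left out was assumed to vary like the others. The members and gene lists were chosen with earlier results of these data known. Named genes were the reporter loci and up to 5 called members of each list with the largest differences (2 where none passed). Also named were the markers of the sorted populations and the 10 largest non-overlapping differences in each direction. Not every member chosen from a list without a call is given above. Members given for promoters or gene starts follow their peak pattern. Other single genes such as HOPX, RELN, GAD1, WNT8B, CCND1, CCNB2 and CACNA2D1 were added after their values were seen.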

Additional observations from a re-analysis of the deposited data

Results flagged for a closer look

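Named loci whose day 40 difference departed from the mean difference of days 60, 90 and 120 were picked out by the limma contrast of the difference itself, adjusted over all 18755 loci. On the progenitor side they were WNT2B (departure 1.57 on the log2 scale, adjusted p = 0.0058), CCN1 (1.19, 0.0193), BHLHE22 (1.15, 0.0121) and NFIA (0.95, 0.0121). On the neuron side, DCX departed by −0.98 (adjusted p = 0.0128), CELF4 by −0.93 (0.0141), TP73 by −1.32 (0.033), CACNA1E by −0.88 (0.0202) and PLXNA4 by −0.81 (0.0388). Among the loci with the largest day 40 differences, ANGPT4 departed by −3.42 (adjusted p = 0.0058), FGF6 by −2.68 (0.00495), GRXCR1 by −2.01 (0.0121) and CD300LF by −1.78 (0.0193). With lists of equal length 8 of the 13 passed, and DCX (−0.66, adjusted p = 0.0693), CCN1 (0.81, 0.069), TP73 (−0.65, 0.393), PLXNA4 (−0.78, 0.0922) and CD300LF (−1.55, 0.0587) did not. None of these departures passed without progenitor library 1 of day 40 or without neuron library 2, since 0 loci passed there.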

How the results depend on the processing

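Of 57 called loci named here, 0 changed sign under any alternative, 17 kept their call with no scaling, 41 with lists of equal length and 17 to 37 without 1 library. With no scaling, 45 and 132 loci were called (progenitors, neurons), and 2 and 14 for the contrast with later days. Lists of equal length, with 67977 peaks, gave 717 loci higher in neurons and 457 and 376 for the later contrast. With 98690 peaks in each day 40 list, 252 and 202 gene starts were counted. Lists of equal covered length gave 17731 neuron-only regions. Counting peaks gave 361 and 197 loci. Requiring peaks over 50% of a region gave 31499 shared regions and −8.75 percentage points for neuron-only regions in later libraries.

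Without 1 library, progenitor-only regions numbered 23296 to 35129, neuron-only 38779 to 65691 and shared 56618 to 59870; gene starts 241 to 292 and 452 to 515; loci 82 to 366 and 63 to 253; and later-contrast loci 0 to 153 and 0 to 102. The later-library differences were 31.6 to 46.5 and −12.2 to −8.82 percentage points. The cause of these changes was not tested.

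Replicate numbers were not shown to pair the samples: same-numbered day 40 libraries deviated with a correlation of −0.13 over loci, and 0.16, 0.06 and 0.09 at days 60, 90 and 120. With the replicate block 597 and 437 loci were called, and 195 and 173 in the later contrast; 4 named calls were lost. With the numbers of day 40 neurons crossed, chosen after seeing the data, the counts were 759 and 522, and 293 and 233. The alternative without the short day 120 library was also chosen after seeing the data. With 2 libraries per group and unknown depth, small differences cannot be resolved, and a missing peak is not closed chromatin.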
